A study of Mus musculus with 285 samples.

Results

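Muscle samples that carried more or less keratocan (Kera) mRNA were compared among mice of 1 stretch of the animal numbers. Kera encodes a small leucine-rich proteoglycan of cornea and tendon. Of the 285 mice profiled, the 160 numbered 91 to 270 were ranked by the deposited value of their single Kera probe. The groups were thus chosen by Kera alone: the top 40 formed the high-Kera group and the bottom 40 the low-Kera group, and every other feature was compared between them. The mice were F2 animals bred by crossing F1 offspring of C57BL/6J and C3H/HeJ parents, with both directions of the cross in the series. Every animal was kept on chow of 4% fat up to the age of 8 weeks and then, over a further 12 weeks, on Western food (42% fat; cholesterol made up 0.15%). Tissue was taken at 20 weeks of age, 12 hours after food was removed. The RNA of each mouse (Cy3) was measured on an oligonucleotide array against a pool (Cy5) made from equal RNA portions of all samples. The 2 groups therefore share the pair of parental strains, diet and age. Genotype and cross direction may differ between them. The series holds both sexes, and the labels give no sex, cross direction or genotype for single animals and do not say which muscle was taken.

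Tendon joins muscle to bone through parallel collagen I fibrils laid down by tenocytes. Small leucine-rich proteoglycans such as fibromodulin bind these fibrils and set their width, and tenomodulin (Tnmd) is a membrane glycoprotein made mainly by tendon and ligament cells. A piece of muscle taken whole can include tendon, aponeurosis and the sheaths around fibres. In whole-tissue RNA a larger number of cells of a type and more RNA per cell cannot be told apart.

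Values are log2 ratios of mouse over pool, so 0 is the level of the pool. The labels do not state the sign or base of the deposited ratios. They were read as log10 of mouse over pool. The base was assumed and not tested, and every log2 size and fold given here rests on it. Read as log2, the calls stay as they are and no gene reaches a doubling. The sign was chosen because the mean linear ratio of a gene over all mice should lie near 1 against a pool of the same mice. For the Y-linked Eif2s3y it was 0.796 under this reading and 23.2 with the sign turned, and for Kdm5d 0.942 and 3.43. Turning the sign would exchange the names of the groups and leave each high minus low difference as it is. Array pairs among the 160 mice correlated with a median r of 0.0695, from -0.745 to 0.781, and 2.68% of pairs lay below -0.3. The SD of log2 values within these arrays ranged from 0.18 to 0.62.

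Kera chose the groups, so its values are given as a description. In the high-Kera mice it ranged from -0.94 to 2.14 with a median of -0.51, and in the low-Kera mice from -3.51 to -1.88 with a median of -2.15. The 80 mice ranked between them had a median of -1.40. At the upper limit the last mouse inside had -0.936 and the first outside -0.939, and at the lower limit the last outside had -1.851 and the first inside -1.880. The limits thus cut a continuous distribution. The group means differed by 1.86.

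**Figure D1:**
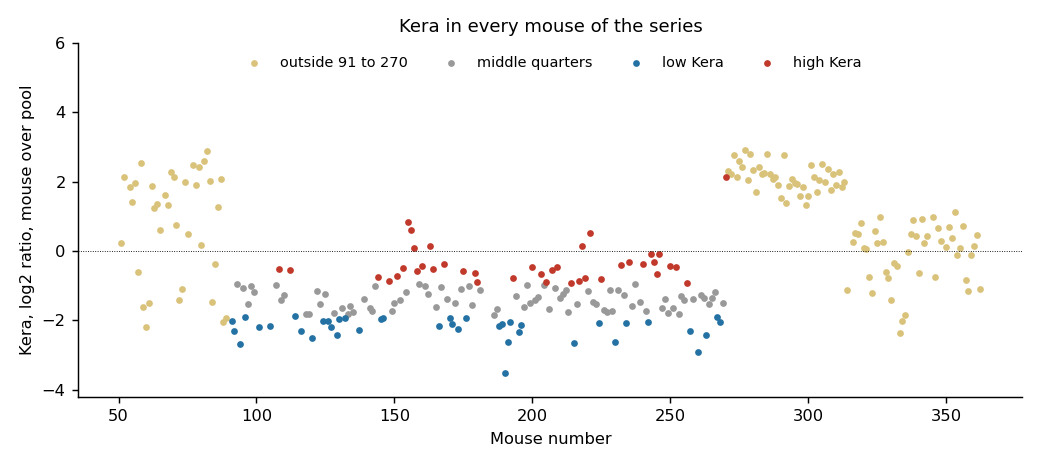
Kera in each of the 285 mice (log2 ratio of mouse over pool, vertical axis) against the mouse number (horizontal axis), coloured by group. The mice numbered 91 to 270 lie almost all below the pool, the 40 mice numbered 271 to 310 lie between 1.31 and 2.90, and mouse 270, at 2.14, lies with the latter.

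Mouse 270 stood apart from the rest of the high-Kera group. Its Kera value of 2.14 was followed by 0.82 and 0.61 in the next mice. It also had the highest Tnmd (1.74), Chad (2.32) and Fmod (2.07) of the group. Its Irx5 value, -2.11, lay near the median of -1.93 in numbers 271 to 310 against a high-Kera median of 0.01. Irx5 encodes an Iroquois homeobox factor. The counts of calls are given with and without this array, and named genes that lost their call without it are said below.

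The groups were not spread evenly over the numbers. The median mouse number was 204 in the high-Kera and 170.5 in the low-Kera group. Numbers 91 to 130 held 2 high-Kera and 14 low-Kera mice. Sex is not labelled, but the Y-linked Eif2s3y lay lower in the high-Kera group, with a median of -3.31 and a range from -6.52 to 1.84. In the low-Kera group its median was -0.093 and its range from -5.81 to 1.29. Values below -2 were found in 21 of 40 and 15 of 40 mice. The difference in means was -1.05 ± 0.63 (SE, n = 40 and 40; adjusted p = 0.358 by limma). The slow myosin gene Myh7 differed by 0.12 ± 0.15 (adjusted p = 0.699 by limma), and 1 high-Kera mouse and 0 low-Kera mice had Myh7 below -2. The 4 arrays of the widest spread (SD above 0.45) were all of low-Kera mice.

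Outside Kera, 333 of 21511 features were higher in the high-Kera mice (1.55%) and 272 were lower (1.26%), by limma with a Benjamini-Hochberg adjusted p under 0.05. Among the 11621 named genes, 216 were higher (1.86%) and 148 lower (1.27%). Rises were larger than falls: the median difference was 0.25 among the former and -0.11 among the latter, against -0.0142 over all features. A rise of at least 0.3 was reached by 104 features and a fall of at least 0.3 by 4. A doubling was reached by 3 genes (0.0139% of features), Tnmd, Chad and Fmod, and a halving by 0. Without mouse 270, 275 were higher and 218 lower, and with the Eif2s3y level as a covariate 253 were higher (1.18%) and 139 lower (0.646%). With mouse number as a covariate 273 were higher and 227 lower. Of the original calls, 271 higher and 210 lower ones held without mouse 270, 235 and 132 with Eif2s3y and 211 and 138 with mouse number as the covariate. The part of sex and of mouse order in the differences was not tested further.

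**Figure D2:**
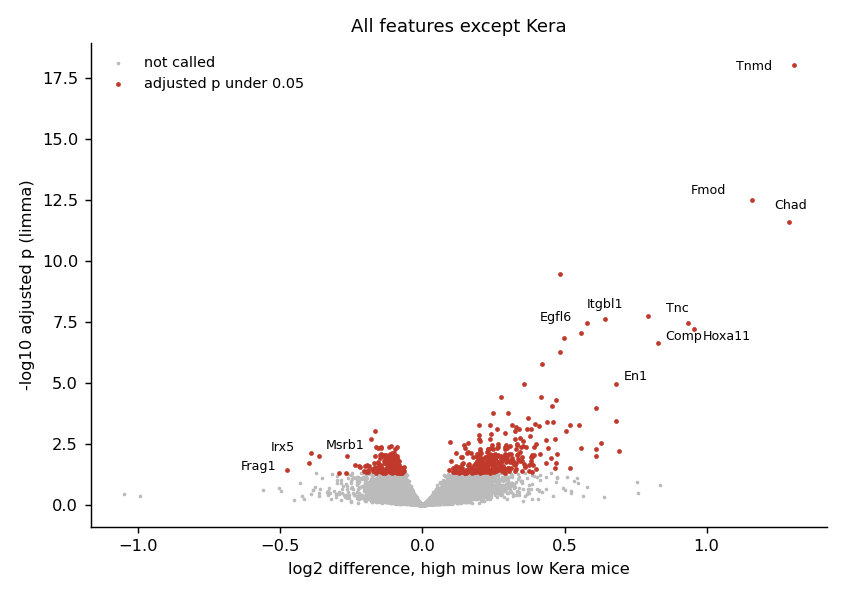
Difference between the high-Kera and low-Kera means (log2, horizontal axis) and -log10 of the adjusted p by limma (vertical axis) for each of 21511 features, with called features in red. Tnmd, Chad and Fmod lie apart at differences of 1.31, 1.29 and 1.16, while the called falls end at -0.48 with Frag1.

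The 3 doubled genes all encode proteins of the tendon surface or matrix. Tenomodulin is a transmembrane glycoprotein of tenocytes, chondroadherin (Chad) a leucine-rich repeat protein that binds collagen and integrins, and fibromodulin (Fmod) a proteoglycan that binds collagen I fibrils. The bases just upstream of the RefSeq starts of these 3 genes are shown because they are the genes that moved most with Kera. Each window holds the 250 bases before the start (RefSeq, GRCm38.p6). Capitals mark E-box letters, CANNTG, which read the same on both strands and are the kind of site that basic helix-loop-helix factors such as scleraxis can bind.
Tnmd chrX:133850758-133851007 (+ strand): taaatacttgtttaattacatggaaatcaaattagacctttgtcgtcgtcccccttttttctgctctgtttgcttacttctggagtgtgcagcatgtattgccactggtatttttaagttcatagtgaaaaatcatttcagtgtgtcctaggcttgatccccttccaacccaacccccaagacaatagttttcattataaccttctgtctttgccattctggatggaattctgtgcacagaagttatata
Chad chr11:94564797-94565046 (+ strand): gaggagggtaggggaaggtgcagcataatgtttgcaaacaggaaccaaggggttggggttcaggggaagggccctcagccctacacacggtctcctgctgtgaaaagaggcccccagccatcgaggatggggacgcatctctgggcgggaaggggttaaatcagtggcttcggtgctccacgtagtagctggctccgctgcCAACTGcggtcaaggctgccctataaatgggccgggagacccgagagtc
Fmod chr1:134037004-134037253 (+ strand): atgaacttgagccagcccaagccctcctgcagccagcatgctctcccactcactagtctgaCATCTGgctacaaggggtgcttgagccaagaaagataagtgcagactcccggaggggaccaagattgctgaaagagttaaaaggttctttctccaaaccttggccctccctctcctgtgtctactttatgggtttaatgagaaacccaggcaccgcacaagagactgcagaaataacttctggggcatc
The Tnmd window held 0 such matches, the Chad window 1 (CAACTG) and the Fmod window 1 (CATCTG). Of all 32851 RefSeq windows of this length, 66.2% held at least 1. The windows had GC shares of 38.4%, 60.4% and 51.2%, against a median of 52.4%. A match is only a description of letters.

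Tnmd separated the groups most sharply. In the high-Kera mice it ranged from -0.86 to 1.74 with a median of -0.22, and in the low-Kera mice from -2.44 to -0.72 with a median of -1.39. The groups overlapped little, since 36 of 40 high-Kera mice lay above every low-Kera mouse. The difference was 1.31 ± 0.09 (SE, n = 40 and 40), or 2.47-fold, with an adjusted p of 9.26e-19 by limma. Of the 40 high-Kera mice, 31 were also in the top 40 of the 160 by Tnmd, and of the 40 low-Kera mice 28 were in the bottom 40.

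Chad was wider within the high-Kera group. It ranged there from -1.51 to 2.32 with a median of -0.083, and in the low-Kera mice from -2.15 to -0.86 with a median of -1.39. The lowest high-Kera mice thus lay inside the range of the low-Kera group, although 32 of 40 lay above it. The difference was 1.29 ± 0.13 (adjusted p = 2.48e-12 by limma). Fmod ranged from -1.38 to 2.07 with a median of -0.014 in the high-Kera mice, and from -1.95 to -0.74 with a median of -1.26 in the low-Kera mice. Of the high-Kera mice, 33 of 40 exceeded every low-Kera value of Fmod. The difference was 1.16 ± 0.11 (adjusted p = 3.15e-13 by limma). None of the 40 low-Kera mice was in the top 40 by Tnmd, Chad or Fmod. Without mouse 270 the 3 differences were 1.26, 1.23 and 1.10, and with Eif2s3y as a covariate 1.30, 1.26 and 1.15. By these 3 markers the label of tendon content fitted the groups. Other genes of tendon given below did not all follow: Thbs4, Scx, Dcn and Bgn were not called, and Col12a1 was called lower. That tendon genes vary together in this series was known when the groups were set, so their agreement with Kera is no independent support.

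**Figure D3:**
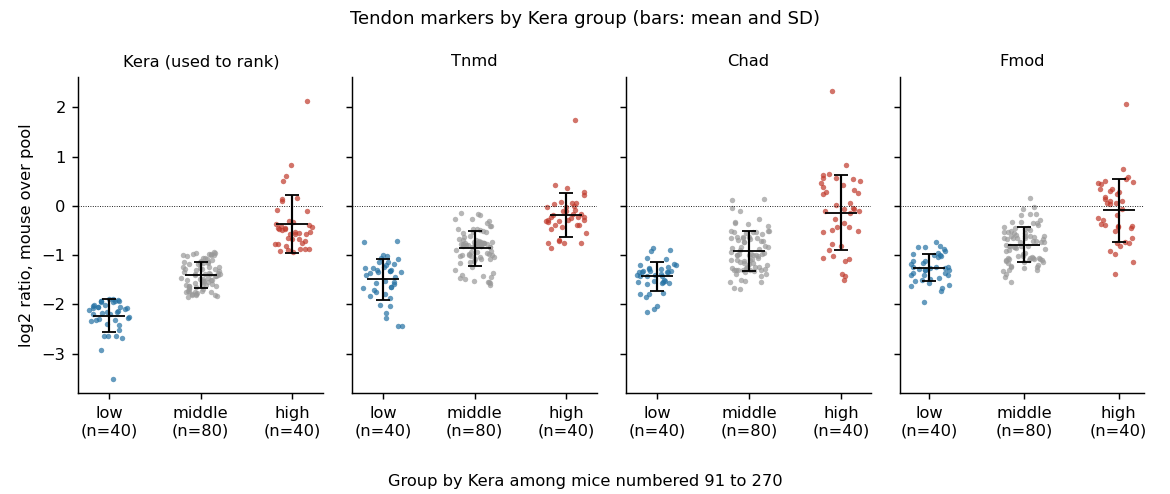
Log2 ratio of mouse over pool (vertical axis) of Kera, which ranked the mice, and of Tnmd, Chad and Fmod in the low-Kera, middle and high-Kera groups (horizontal axis), 1 point per mouse with the mean and SD as bars. The middle mice have medians between those of the other groups for each gene, and mouse 270 is the highest point of each panel.

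Counts of list members, here and below, are to be read against 1.86% of all named genes called higher and 1.27% called lower. Among small leucine-rich proteoglycans, 5 of 11 measured members rose and 0 fell, with a median difference of 0.13. Beside Fmod and Chad these were lumican (Lum), which binds collagen fibrils, by 0.44 ± 0.09 (adjusted p = 0.00227 by limma), and osteoglycin (Ogn) by 0.42 ± 0.10. Osteomodulin (Omd) rose by 0.40 ± 0.07. The abundant fibril proteoglycans decorin and biglycan did not pass the test. Decorin (Dcn) differed by 0.13 ± 0.07 (adjusted p = 0.291 by limma) and biglycan (Bgn) by 0.077 ± 0.07 (adjusted p = 0.533 by limma). Asporin, on the array under the capital symbol ASPN, was not counted among the 11. It differed by -0.0975 (adjusted p = 0.623 by limma).

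Of the glycoproteins of tendon matrix, 9 of 16 rose and 0 fell, with a median of 0.22. Tenascin-C (Tnc), a large glycoprotein of loaded and growing tendon, ranged from -1.57 to 2.02 in high-Kera mice (median -0.33) and from -2.08 to -0.40 in low-Kera mice (median -1.28). It rose by 0.93 ± 0.12 (adjusted p = 3.5e-08 by limma). Comp, which encodes a pentameric thrombospondin that binds collagen, ranged from -1.16 to 2.68 (median -0.17) and from -1.52 to -0.35 (median -0.92). Its difference was 0.83 ± 0.11 (adjusted p = 2.39e-07 by limma), and 24 of 40 high-Kera mice lay above all low-Kera mice. Lubricin (Prg4), the lubricant of joint and tendon surfaces, rose by 0.69 ± 0.16 (adjusted p = 0.00646 by limma), but its groups overlapped almost fully, with 6 of 40 high-Kera mice above the low-Kera range. Its difference was 0.25 in numbers 91 to 180 and 1.08 in 181 to 270, without a call for the difference between them (adjusted p = 0.643 by limma). Thrombospondin 2 (Thbs2) rose by 0.61 ± 0.10, Ccn4 (a secreted matricellular protein) by 0.50 ± 0.07, Thbs3 by 0.25 ± 0.07, Clec11a by 0.24 ± 0.04 and Matn2 by 0.14 ± 0.03. The 2 probes of Matn2 disagreed, at -0.061 and 0.33. Thbs4, the thrombospondin of tendon and of the muscle-tendon junction, did not pass, at 0.21 ± 0.11 (adjusted p = 0.301 by limma). Its medians were -0.12 and -0.16. With Eif2s3y as a covariate it was called, at 0.32 (adjusted p = 0.0431 by limma), while Thbs3 was not (adjusted p = 0.0509 by limma).

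Fibrillar collagen genes rose in 5 of 9 cases, with a median of 0.20 and 0 falls. The largest rise was that of Col11a1, a minor chain that starts fibrils, from a low-Kera median of -0.38 to a high-Kera median of 0.17. All 40 high-Kera mice lay above the low-Kera median, and the difference was 0.56 ± 0.07 (adjusted p = 9.55e-08 by limma). Chains of collagen V, which is built into collagen I fibrils, rose by 0.38 ± 0.09 (Col5a2) and 0.26 ± 0.06 (Col5a1). The main tendon collagen moved less: Col1a2 rose by 0.23 ± 0.05 and Col1a1 by 0.12 ± 0.03. Its probes did not agree in size, from 0.058 to 0.41 for the 2 of Col1a2 and from -0.071 to 0.53 for the 4 of Col1a1.

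Of the fibril-associated and other collagens 3 of 12 rose and 1 fell (median 0.092). Col14a1, a fibril-associated collagen, rose by 0.42 ± 0.07, Col6a3 of the microfibrils around cells by 0.39 ± 0.08 and Col15a1 by 0.24 ± 0.06. Col12a1, a fibril-associated collagen known from tendon, went the other way and fell by 0.20 on the log2 scale (SE 0.05; adjusted p = 0.0244 by limma), from a single probe. With Eif2s3y as a covariate it was not called (adjusted p = 0.0501 by limma). In basement membranes 3 of 13 genes rose (median 0.11), which were laminin alpha 2 (Lama2, 0.30 ± 0.07) and the nidogens Nid1 (0.26 ± 0.06) and Nid2 (0.20 ± 0.04). With mouse number as a covariate Lama2 and Nid1 lost their calls (adjusted p = 0.0672 and 0.0602 by limma). Among 18 genes of collagen processing and cross-linking 2 rose (median 0.034), P3h2, a prolyl hydroxylase, by 0.34 ± 0.09 and Pcolce, a helper of procollagen cleavage, by 0.26 ± 0.07. Lysyl oxidase (Lox), which cross-links collagen, differed by 0.40 ± 0.13 (adjusted p = 0.0705 by limma) and was called with Eif2s3y as a covariate, at 0.47 (adjusted p = 0.0384 by limma). Pcolce lost its call there (adjusted p = 0.0554 by limma) and without mouse 270 (adjusted p = 0.0505 by limma).

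The measured transcription factors of tendon did not pass: 0 of 6 were called by limma, with a median of 0.13. With 1.86% of all named genes called higher, a count of 0 in so short a list says little. Scleraxis (Scx), the factor that marks tendon progenitors, differed by 0.14 ± 0.07 (adjusted p = 0.249 by limma), and Egr1 by 0.47 ± 0.16 (adjusted p = 0.0734 by limma). In TGF-beta and BMP signalling 3 of 27 genes rose and 0 fell (median 0.014). These were the ligand genes Gdf10 (0.52 ± 0.10) and Inhba (0.32 ± 0.06) and Tgfbi (0.28 ± 0.08), a matrix protein induced by TGF-beta. The ligand gene Gdf10 had medians of 0.26 in high-Kera and -0.33 in low-Kera mice.

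Among genes of position along the body and limb 3 of 28 rose and 1 fell (median -0.032). Hoxa11, a homeobox gene of the middle limb segment, had the fourth largest rise of all named genes. It ranged from -1.24 to 1.30 in high-Kera mice (median 0.087) and from -1.95 to -0.34 in low-Kera mice (median -0.92). Of the high-Kera mice 27 of 40 exceeded all low-Kera mice. The difference was 0.96 ± 0.12 (adjusted p = 6.24e-08 by limma), 0.94 without mouse 270 and 1.04 with Eif2s3y as a covariate. Hoxa11 also varied by stretch of mouse number. Every mouse numbered 198 to 212 had a positive value (0.130 to 1.660), and none of these was a low-Kera mouse. High-Kera mice 108, 112, 144 and 193 had -1.055, -1.245, -0.103 and -0.680. With mouse number as a linear covariate the difference was 0.95, but such a term does not take up steps between stretches. The part of these stretches was not tested. En1, a homeobox gene of the ventral limb, rose by 0.68 ± 0.11 (adjusted p = 1.13e-05 by limma), and its medians were -0.30 and -0.99. Irx5 fell by 0.39 on the log2 scale (SE 0.09; adjusted p = 0.00762 by limma), and by 0.34 without mouse 270. Twist2 rose by 0.21 ± 0.06 and lost its call without mouse 270 (adjusted p = 0.0709 by limma) and with Eif2s3y or mouse number as a covariate (adjusted p = 0.0533 and 0.103 by limma). How far the place of dissection differed between the groups was not tested.

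Genes of fibroblasts between muscle fibres rose too, in 7 of 14 cases with a median of 0.21 and 0 falls. They were Dpp4 (0.30 ± 0.06), Pdgfra (0.28 ± 0.07), Fap (0.23 ± 0.06), Cd34 (0.21 ± 0.05), Smoc2, Fbln1 and Fbln2. Of the 14, 10 had a positive difference. The others, Tcf7l2 (-0.24), Osr1 (-0.040), Hic1 (-0.0089) and Pi16 (-0.0062), were negative and not called by limma. Smoc2 lost its call with Eif2s3y as a covariate (adjusted p = 0.0545 by limma) and Fbln2 with mouse number (adjusted p = 0.115 by limma). Dpt and Clec3b of this list gained a call with mouse number as a covariate, at 0.31 and 0.35 (adjusted p = 0.0172 and 0.021 by limma). Mmp2, the gelatinase of connective tissue, rose by 0.33 ± 0.07 as 1 of 14 metalloproteinase and inhibitor genes (median 0.073). Of 7 elastic fibre genes 2 rose (median 0.11), Emilin2 by 0.31 ± 0.07 and Mfap2 by 0.25 ± 0.06. The changes in these genes were smaller than those of Tnmd, Chad and Fmod. The other genes among the 15 largest rises were the Wnt antagonist gene Sfrp2 (0.68 ± 0.12), Itgbl1 (0.64 ± 0.08), the proton pump subunit gene Atp6v1c2 (0.63 ± 0.13), the mineralisation inhibitor gene Mgp (0.61 ± 0.14), the secreted matrix protein gene Egfl6 (0.58 ± 0.07) and Ccn2 (0.56 ± 0.12), a matricellular protein gene induced by load. Egfl6 had medians of -0.22 and -0.68, and 40 of 40 high-Kera mice lay above the low-Kera median.

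**Figure D4:**
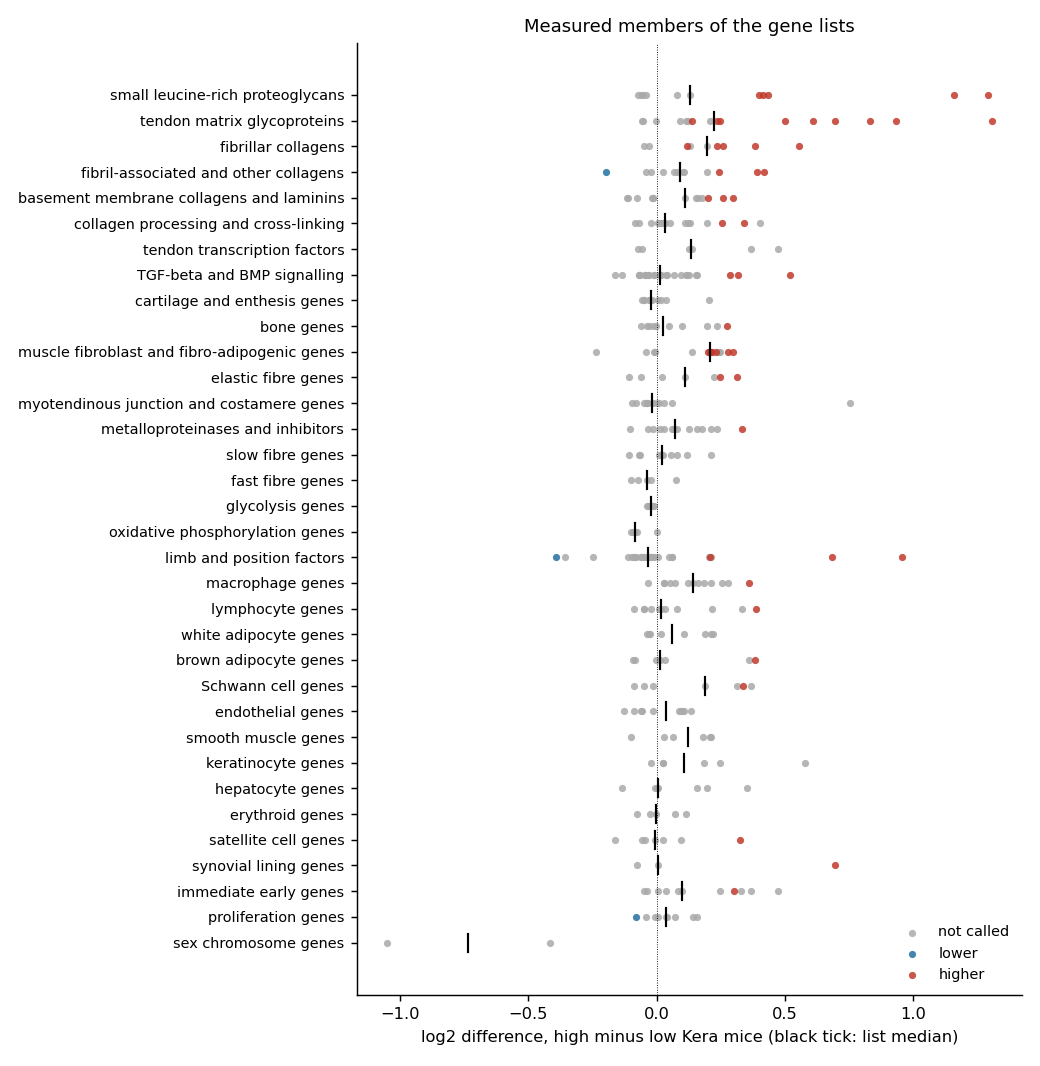
Difference between high-Kera and low-Kera mice (log2, horizontal axis) for each measured member of the gene lists (rows), red where called higher, blue where called lower and grey where not called, with the list median as a black tick. The largest rises lie in the top rows of proteoglycans and tendon glycoproteins and in the position factors, while the fibre and energy metabolism rows lie close to 0.

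Skeleton and muscle fibre lists were short, and against 1.86% of all named genes called higher and 1.27% called lower, a count of 0 in such a list says little. Of cartilage and enthesis genes 0 of 10 were called (median -0.022), and aggrecan (Acan) differed by 0.00 ± 0.05. Of bone genes 1 of 10 rose, the protease gene Ctsk (0.27 ± 0.07), which lost its call with mouse number as a covariate (adjusted p = 0.0652 by limma). Calls by limma were 0 of 10 for slow fibre genes (median 0.02), 0 of 5 for fast fibre genes (-0.039), 0 of 8 for glycolysis (-0.022) and 0 of 5 for oxidative phosphorylation (-0.085). All 8 glycolysis genes of the list had a small negative difference, from -0.037 to -0.011, against a median of -0.0114 over all named genes. A further entry under the capital symbol ALDOA, not counted in the list, had 0.0064. Of 13 genes of the muscle-tendon junction and costameres 0 were called (median -0.019), where the strain-induced gene Ankrd1 had 0.76 ± 0.28 (adjusted p = 0.121 by limma) with ranges from -2.58 to 4.30 and from -2.49 to 3.25. With mouse number as a covariate Vcl of this list was called lower, at -0.11 (adjusted p = 0.0154 by limma).

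Markers of other cells in the tissue were measured in lists of 3 to 13 genes, to be read against the 1.86% of all named genes called higher. Of 13 macrophage genes 1 rose, the mannose receptor gene Mrc1 (0.36 ± 0.10; list median 0.14), and of 11 lymphocyte genes 1, Ptprc (0.39 ± 0.11; list median 0.018). Ptprc lost its call without mouse 270 (adjusted p = 0.0563 by limma) and with mouse number as a covariate (adjusted p = 0.0525 by limma). The array means of the macrophage list ran from -0.60 to 0.35 in high-Kera and from -0.88 to 0.37 in low-Kera mice. Of 7 Schwann cell genes Pmp22 rose (0.34 ± 0.08; median 0.19), of 7 satellite cell genes Vcam1 (0.33 ± 0.06), and of 7 brown adipocyte genes Dio2 (0.38 ± 0.10). Of 3 synovial lining genes 1 rose, Prg4, and of 11 immediate early genes 1, Dusp1 (0.30 ± 0.09). Pmp22 lost its call with mouse number as a covariate (adjusted p = 0.0649 by limma) and Dusp1 with Eif2s3y (adjusted p = 0.0785 by limma). White adipocyte (0 of 8), endothelial (0 of 10), smooth muscle (0 of 6), keratinocyte (0 of 6), hepatocyte (0 of 7) and erythroid (0 of 5) genes had no call by limma. Of 9 proliferation genes 1 fell, Bub1, by 0.08 on the log2 scale, with no call without mouse 270 (adjusted p = 0.0627 by limma) or with Eif2s3y as a covariate (adjusted p = 0.0856 by limma). The part of macrophages or other cells in the result was not tested.

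Falls were small. The largest were those of Frag1, by 0.48 on the log2 scale (SE 0.14; adjusted p = 0.0368 by limma), Irx5, and the methionine sulfoxide reductase gene Msrb1, by 0.37 on the log2 scale (SE 0.09). Msrb1 ranged from -0.91 to 0.86 in high-Kera mice (median -0.05) and from -0.63 to 0.88 in low-Kera mice (median 0.26). The ranges overlapped fully, and 37 of 40 high-Kera mice lay below the low-Kera median. The sarcomere M-band gene Myom1 fell by 0.18 on the log2 scale (SE 0.04; adjusted p = 0.00209 by limma). Esrra, a nuclear receptor gene of mitochondrial metabolism, fell by 0.18 on the log2 scale, and Pex11a, of peroxisome division, by 0.17 on the log2 scale. Zfp622, Cyp2c38, Cenpm, Fdx1, Zbtb43, Snx21, C2CD2 and Chrna7 fell by values between 0.29 and 0.17 on the log2 scale. Many of these calls depended on the setting, while 0 of the 15 largest rises lost theirs in the following fits. Without mouse 270, 5 of the 15 largest falls were not called by limma: Frag1 (adjusted p = 0.0506), Zfp622 (0.0637), Fdx1 (0.0619), Snx21 (0.0636) and C2CD2 (0.0528). With Eif2s3y as a covariate 9 were not called, which were these 5, Zbtb43, Col12a1, Esrra and Chrna7, with adjusted p from 0.0501 to 0.11. With mouse number as a covariate 8 were not called, the same without Col12a1, with adjusted p from 0.0512 to 0.187.

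The same relation was then measured in mice that neither group held. In the 80 mice ranked between the groups, the slope on Kera was multiplied by the Kera gap of 1.86 so that it can be read beside the differences above. Tnmd had a scaled slope of 1.43 (adjusted p = 0.000191 by limma), Chad 1.34 (adjusted p = 0.0282) and Fmod 1.29 (adjusted p = 0.00833). These were 3 of the 4 features called with a positive slope (0.0186%), and 1 had a negative slope (0.00465%). The fourth positive one, Caskin2, differed by 0.00 between the groups. The same sign as between the groups was found for 283 of 333 higher features (85%) and 188 of 272 lower ones (69.1%). Over all features 49.5% had a positive slope in these 80 mice and 50.5% a negative one. Hoxa11 had a scaled slope of 1.02 there without a call (adjusted p = 0.784 by limma).

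Outside numbers 91 to 270, 125 mice gave slopes on Kera with the run of numbers as a block. Positive slopes were called for 663 features (3.08%) and negative ones for 713 (3.31%). Of the 333 features higher in high-Kera mice, 215 were called again in the same direction (64.6% of these and 32.4% of the positive slopes). Of the 272 lower ones 12 were (4.41% and 1.68%). The same sign was found for 324 of the higher (97.3%; 42.3% of all features had a positive slope) and 247 of the lower features (90.8%; 57.7% of all had a negative slope). The scaled slopes of Tnmd, Chad, Fmod and Comp were 1.61, 1.51, 1.32 and 1.12, and that of Prg4 was 1.02. Kera itself was high in most of these mice, with medians of 1.34 in numbers 51 to 90, 2.13 in 271 to 310 and 1.98 in 311 to 313, and the runs also differed in Irx5 (medians of -1.61, -1.93 and -2.20, against 0.30 in 314 to 362) and in Myh7 (-4.04, -3.11 and -0.40, against 0.25). Their part in the slopes was not tested. In numbers 51 to 90 and 271 to 310 alone 1024 positive (4.76%) and 1768 negative slopes (8.22%) were called, and in 311 and above 92 (0.428%) and 7 (0.0325%). In the former set 264 of the 333 higher features (79.3%) and 125 of the 272 lower ones (46%) were called again in the same direction, and 327 and 266 had the same sign. In the 46 mice numbered 314 and above, whose Kera median was 0.13, 157 positive slopes (0.73%) and 108 negative ones (0.502%) were called. There 42 of the 333 higher features (12.6%) were called again and 0 of the 272 lower in the same direction. The same sign was found for 235 of the 333 (70.6%; 50.6% of all features had a positive slope) and for 57 of the 272 (21%; 49.4% of all had a negative slope). Most falls therefore had the opposite sign in these 46 mice and the same sign in the 76 mice numbered 51 to 90 and 271 to 310.

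**Figure D5:**
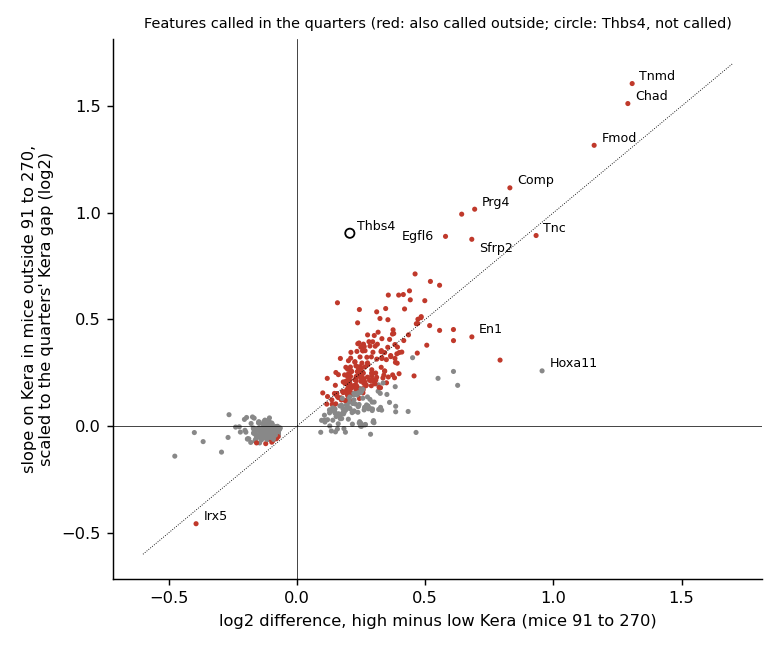
Difference between high-Kera and low-Kera mice (log2, horizontal axis) and slope on Kera in the 125 mice outside 91 to 270 scaled to the Kera gap of 1.86 (log2, vertical axis) for the features called between the groups, red where also called outside, with equality as a dotted line. Tnmd, Chad, Fmod and Comp lie near or above the line, Hoxa11 lies below it at 0.26, and Thbs4 (circle, not called between the groups) lies at 0.90.

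Slopes of the called position genes were also read by run of numbers, with no test between runs. The scaled slope of Hoxa11 was 0.26 over all outside mice (adjusted p = 0.153 by limma), 0.15 in numbers 51 to 90 and 271 to 310, and 1.19 in numbers 314 and above (adjusted p = 0.0212 by limma). En1 had 0.42, 0.15 and 1.06 in the same sets of mice, and Irx5 had -0.46, -0.26 and -0.39. The slope of Hoxa11 outside minus inside 91 to 270 was not called (-0.34 per log2 of Kera, adjusted p = 0.261 by limma).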

How the data were processed

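Each array compared muscle RNA of 1 mouse with the pool of all mice. The deposited table holds 1 column per mouse of ratios that were read as log10 values. Per the labels, samples were extracted on spin columns with DNase treatment and amplified with aminoallyl labelling. Scanner software, normalisation and filters are not given in the sources used here. Deposited log10 values end at exactly 2 and -2, with 471 and 178 values at these bounds, and array medians lie between -0.0222 and 0.0173. The files hold no intensities, so signal over background is unknown, and the number of arrays limits the precision.

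Of 23560 probes, the 23510 measured on 80% of arrays or more were kept, and missing values (0.00181%) were set to the gene mean. Of all probes, 13653 had 1 gene symbol, 48 several and 9859 none, and 12650 symbols were updated through the Entrez identifier (RefSeq table, GRCm38.p6). Probes of a gene were averaged, values turned to log2, and 11622 named genes and 9890 unnamed probes resulted. List members were matched by exact symbol, so entries under capital symbols, such as ASPN, ALDOA and ADIPOQ, were not counted in the lists. Kera, Chad and Fmod have 1 probe each. Groups were compared with limma 3.58.1 in R 4.3.3 (lmFit, eBayes, two-sided, Benjamini-Hochberg over 21511 features without Kera), tested on simulated data. The p-values treat mice as exchangeable. Named genes are the 15 largest called rises and falls, up to 4 members per list with the largest absolute difference, and Kera, Chad and Fmod; further list members are named where they were called or anchor a statement, chosen after their values were seen. The groups, gene lists and tests were chosen with earlier results of these data known. Alternatives covered probe choice, array scaling, covariates, number ranges, outlying arrays and filters.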

Additional observations from a re-analysis of the deposited data

Results flagged for a closer look

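The slope on Kera was compared between the 160 mice numbered 91 to 270 and the 125 mice outside them, in log2 per log2 of Kera, a test added after the data were seen. It differed for 5 of 21511 features, each with a steeper slope outside, and 4 of the 5 are named genes. An unadjusted p under 0.05 was found for 1166 features (5.42%). Thbs4, the thrombospondin of tendon and the muscle-tendon junction, had slopes of 0.12 inside and 0.49 outside, a difference of 0.37 (adjusted p = 2.5e-05 by limma). Wif1, a secreted Wnt inhibitor gene, had 0.12 inside and 0.31 outside, a difference of 0.19 (adjusted p = 4.3e-07 by limma). Clec11a, a secreted growth factor gene of the skeleton, had 0.13 inside and 0.26 outside, a difference of 0.13 (adjusted p = 0.0257 by limma). Gas1 had 0.0067 inside and 0.16 outside, a difference of 0.16 (adjusted p = 0.0257 by limma). Wif1 and Gas1 lie outside the rule for named genes and were chosen after their values were seen.

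Between numbers 91 to 180 and 181 to 270 the difference of high-Kera and low-Kera mice was called different for 0 of 21511 features by limma. There 1549 had an unadjusted p under 0.05 (7.2%), and the lowest adjusted p was 0.106.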

How the results depend on the processing

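Of the 148 genes named by the rule, 0 reversed a call under any alternative; 147 could be tested with Eif2s3y or Myh7 as the covariate, which leave out that gene, and 136 among features of SD above the median. The probe of largest SD, values at the bounds set to missing, robust eBayes, Myh7 as a covariate and leaving out the mouse of low Myh7 kept both counts of calls within 1.5 times. So did arrays scaled to equal spread (327 higher, 370 lower), mouse number as a covariate (273 and 227, though only 211 and 138 of these were called in the original comparison), Kera as a continuous term over 160 mice (462 and 380) and leaving out mouse 270. With Eif2s3y as a covariate 139 features were lower. Without the 4 arrays of outlying spread 365 features were higher and 414 lower. Among features of SD above the median, where fewer features were tested, 295 were higher and 29 lower. Of the original 333 higher calls 291 held there, and of the 272 lower calls 28. In numbers 91 to 180 alone 20 were higher and 2 lower, and in 181 to 270 alone 218 and 6, with 40 mice each. In the latter 6 genes rose by at least 1 on the log2 scale. Of the 15 largest rises, 5 were not called in 91 to 180 alone (Prg4, Sfrp2, Atp6v1c2, Mgp and Ccn2). In 181 to 270 alone 3 were not called (Atp6v1c2, Thbs2 and Ccn2). All 15 largest falls lost their calls in each of these 2 ranges. Read as log2 in place of log10, 0 genes reached that size, while calls stayed as they were. Slopes outside 91 to 270 were called for 1024 features upwards and 1768 downwards in numbers 51 to 90 and 271 to 310 alone, 92 and 7 in 311 and above, and 157 and 108 in 314 and above; the cause was not tested. No paired analysis was possible because each mouse carries its own number and no number is shared between groups.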

Other observations

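Further genes higher in the high-Kera mice lay outside the gene lists and the rule for named genes, and were picked after their values were seen. Cma1 and Cpa3, which encode proteases of mast cell granules, differed by 0.40 ± 0.11 (adjusted p = 0.0341 by limma) and 0.39 ± 0.10 (adjusted p = 0.0234 by limma). With Eif2s3y as a covariate neither was called (adjusted p = 0.082 and 0.0578 by limma). Other mast cell genes were not called: Fcer1a differed by 0.41 (adjusted p = 0.256), Ms4a2 by 0.34 (adjusted p = 0.213) and Tpsb2 by 0.045 (adjusted p = 0.611). The matrix gene Postn (periostin) differed by 0.55 ± 0.10 between the groups, with medians of 0.19 and -0.37, while its scaled slope in the 125 mice outside numbers 91 to 270 was 0.22 (adjusted p = 0.134 by limma). Sfrp4, a secreted Wnt antagonist gene, differed by 0.51 ± 0.10 and had a scaled slope of 0.38 outside (adjusted p = 9.71e-07 by limma). The axon guidance gene Sema3e differed by 0.52 ± 0.14 and had a scaled slope of 0.68 outside (adjusted p = 0.00167 by limma). For these 3 genes the slope outside minus inside 91 to 270 was not called by limma.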
